A study of Homo sapiens with 12 samples.

Results

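Transcripts of the aminoacyl-tRNA synthetases were followed in A375 cells, a human melanoma line, after treatment with the inhibitors OF1 and XL413, together or alone. The 36 genes were listed by name and found by their symbols among the 26475 rows of the count table. They comprise 20 cytosolic enzyme genes and 16 mitochondrial ones, whose symbols end in 2. All 36 were found, and all 36 passed the filter on low counts, as 15353 rows did in the whole table. Their counts ran from 271 to 22530 per library. The table uses older symbols, so that AARS, for example, is now AARS1.

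Each of the 4 groups held 3 libraries, and all cells were harvested after 24 h. The first group received 1 µM OF1 together with 1 µM XL413 (OF1+XL413, the combination). OF1 inhibits the bromodomain proteins BRPF1, BRPF2 and BRPF3, which are scaffolds of histone acetyltransferase complexes, and XL413 inhibits CDC7, a kinase needed for the firing of replication origins. The other groups received 1 µM OF1 alone, 1 µM XL413 alone, or DMSO, the vehicle. The labels name 3 biological replicates per group but do not say how the cultures were kept apart, so the p-values below rest on library-to-library spread, which may be technical. Poly(A) RNA was sequenced, and all cells belong to a single established line.

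Aminoacyl-tRNA synthetases join each amino acid to its own tRNA, which supplies the ribosome with charged tRNAs. Animal cells use separate enzymes in the cytosol and in mitochondria, all encoded in the nucleus. GARS and KARS are exceptions, since each encodes the enzyme of both compartments. EPRS, IARS, LARS, MARS, QARS, RARS, KARS and DARS belong to the multisynthetase complex, an assembly held together by the scaffold proteins AIMP1, AIMP2 and EEF1E1. Many cytosolic synthetase genes are known targets of ATF4, the transcription factor of the amino acid and integrated stress responses. ATF4 binds C/EBP-ATF response elements together with a partner of the C/EBP family.

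Promoter sequence was available from RefSeq (GRCh38.p14) for 30 of the 36 members, in windows of 250 bases before to 50 bases after each annotated start. The core of the C/EBP-ATF element was searched as TGATGNAA on both strands, and more strictly as TGATGCAA. The letters TGATGCAA are an instance of TGATGNAA, so the stricter matches are also counted in the wider search. The wider motif stood in 8 members, of which 7 were among the 16 cytosolic members with a window and 1, YARS2, was among the 14 mitochondrial ones. The stricter motif stood in 6 members, all cytosolic. Of the 27305 genes with a window in the whole table, 4.46% held the wider motif and 1.08% the stricter one, and of all 35116 windows 3.62% and 0.866% did. Among the 30 members, 9 had more than 1 window, and for these the window with the most matches was used. The windows with the stricter motif are shown because all 6 of these genes rose in the combination. Each is given as 100 bases on the strand of its gene, 5′ to 3′, with the motif in capitals:
AARS: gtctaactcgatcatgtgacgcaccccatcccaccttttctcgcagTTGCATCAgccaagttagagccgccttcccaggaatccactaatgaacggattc
CARS: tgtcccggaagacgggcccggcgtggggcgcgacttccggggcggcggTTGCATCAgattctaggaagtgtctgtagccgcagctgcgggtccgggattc
IARS: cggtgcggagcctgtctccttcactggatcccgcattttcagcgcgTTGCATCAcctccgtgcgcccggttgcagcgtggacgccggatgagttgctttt
MARS: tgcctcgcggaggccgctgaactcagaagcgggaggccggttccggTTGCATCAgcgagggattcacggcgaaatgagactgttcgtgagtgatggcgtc
NARS: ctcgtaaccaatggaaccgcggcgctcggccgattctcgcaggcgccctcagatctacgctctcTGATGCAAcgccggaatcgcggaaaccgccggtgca
TARS: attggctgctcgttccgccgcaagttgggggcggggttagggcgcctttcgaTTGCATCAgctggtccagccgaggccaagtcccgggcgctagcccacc

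In GRCh38.p14 these stretches lie at chr16:70289640-70289739 (AARS, minus strand), chr11:3057374-3057473 (CARS, minus), chr9:92293657-92293756 (IARS, minus), chr12:57488018-57488117 (MARS, plus), chr18:57621787-57621886 (NARS, minus) and chr5:33440915-33441014 (TARS, plus). In NARS the capitals read TGATGCAA along the gene's strand, and in the other 5 genes they read as its reverse complement. The first base of the motif lay 187 bases before the start in AARS, and at -2, -13, -4, 15 and 3 bases from the start in CARS, IARS, MARS, NARS and TARS. The motifs of 5 genes thus begin within 15 bases of the annotated start around which the window used was laid. For CARS and TARS, with 2 windows each, that window was picked for its matches. In TARS the motif lies at 33440967 to 33440974, while the annotated first base of the gene is 33440696. Of the cytosolic members that rose in the combination, 7 of 11 with a window held TGATGNAA. Among those that did not rise, 0 of 5 with a window did. As 4.46% of all genes with a window held this motif, 0 among 5 genes is no contrast on its own. VARS and VARS2, which fell, had no window. EPRS, QARS, SARS and WARS rose without either motif. SARS had the largest rise of all members, at a log2 change of 0.37 in the combination against DMSO. WARS (0.31 ± 0.03, SE) and CARS (0.31 ± 0.04, SE), which holds the stricter motif, came next and were about level. The 5 that did not rise had 1 window each to search, while CARS, GARS, SARS, TARS and WARS had 2. The calls of AARS, MARS, NARS and TARS did not hold in every fit described below. Whether the motif goes with the rise was not tested. GARS held only the wider motif. A match is a run of letters, and no binding was measured.

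Total counts ran from 30499559 to 36062138 per library, and replicates differed by more than counting noise in every group, with chi-square values of 2.33 to 14 for each degree of freedom between pairs of replicates. SOX10, a factor of the melanocyte lineage, stood at 318 to 386 CPM (the count scaled to the TMM library size) over the 12 libraries, MITF at 32.8 to 44.4 CPM and S100B at 20.2 to 24.5 CPM. The pigment genes PMEL, MLANA, DCT and TYRP1 stayed at or under 1.04 CPM, and TYR was at 0 in all 12 libraries. All 10 skeletal muscle fibre markers were also counted in every library. Their summed level was 21.2 to 91.3 CPM in the OF1+XL413 libraries, 116 to 268 CPM in the OF1 libraries, 121 to 260.1 CPM in the XL413 libraries and 81.8 to 216 CPM in the DMSO libraries. The sum of 5 fibroblast markers was 47.9 to 144 CPM in the OF1+XL413 libraries and 199 to 253 CPM in the DMSO libraries. Replicates 2 and 3 of the combination were the lowest in both sums, so results of the combination are also given with a muscle score (the mean log2 CPM of the 10 markers) as a covariate and with replicate 1 alone where either ends a call. In such bulk samples, fewer cells of a type and less RNA per cell cannot be told apart.

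Cytosolic synthetase transcripts were more abundant than mitochondrial ones. In DMSO libraries the level per transcript length, in CPM per kb, had a median of 91.4 over the 20 cytosolic members and of 14.7 over the 16 mitochondrial ones. FARSA, the catalytic subunit of phenylalanyl-tRNA synthetase, was highest at 353 ± 7.79 CPM per kb (SD, n = 3). Its partner subunit FARSB was the lowest of the cytosolic members at 26.8 ± 0.343 CPM per kb. KARS (lysine) followed FARSA at 199 ± 0.24 CPM per kb and RARS (arginine) stood at 147 ± 2.48 CPM per kb.

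Among mitochondrial members IARS2 (isoleucine) was highest at 86.7 ± 0.392 CPM per kb and PARS2 (proline) lowest at 3.93 ± 0.0575 CPM per kb (SD, n = 3 each). The 10 highest members were all cytosolic and the 10 lowest all mitochondrial. Of the 35 steps between neighbours in this order, 9 lay between genes whose DMSO libraries overlapped, such as YARS and HARS, IARS2 and EPRS, and CARS and CARS2. The rest of the order was larger than the spread of the 3 libraries. Lengths are those of the principal transcript in GENCODE 29, which may differ from the transcripts the cells use.

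**Figure D1:**
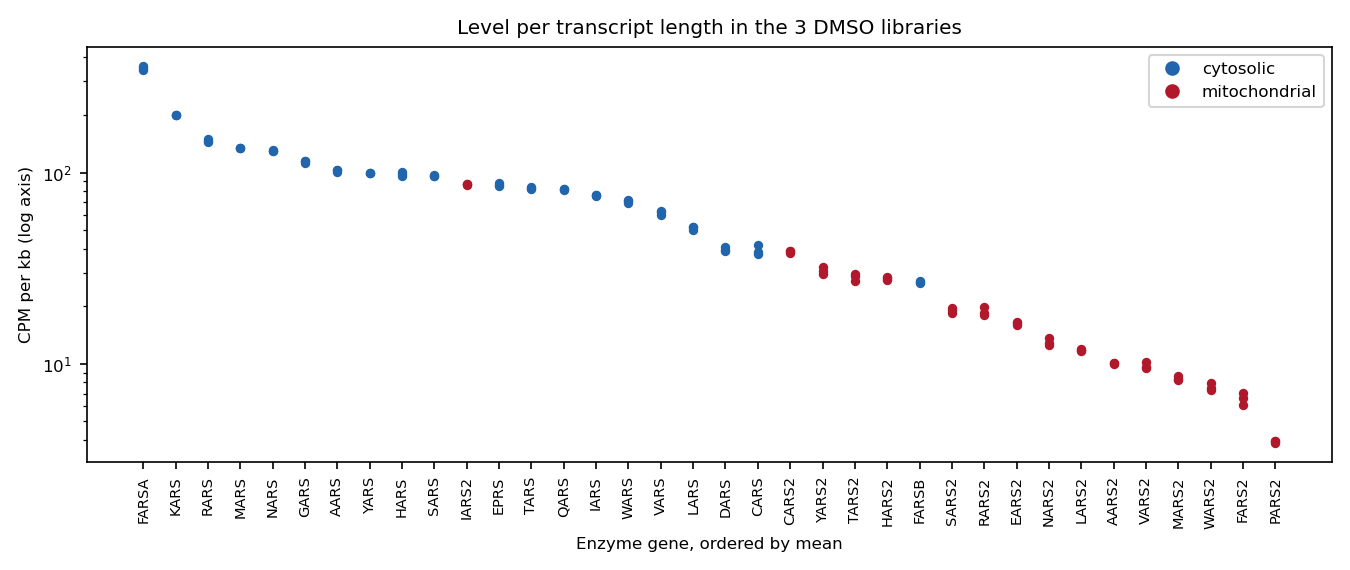
Level of each synthetase transcript in the 3 DMSO libraries, in CPM per kb of transcript on a log axis, ordered by mean, with a point for each library and colour for the compartment. Cytosolic members fill the upper end, from FARSA at 353 CPM per kb, and mitochondrial members the lower end, down to PARS2 at 3.93 CPM per kb.

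In OF1+XL413 libraries against DMSO libraries, 13 of 20 cytosolic synthetases rose, VARS fell, and 6 did not pass the test. The call held for 7 of the 13 with the muscle score as a covariate. Of the 16 mitochondrial members VARS2 fell and 15 did not pass. Over all 15353 tested genes, 5.65% rose and 5.07% fell in this comparison (edgeR quasi-likelihood test, Benjamini-Hochberg adjusted p under 0.05 over all tested genes). Among the 7698 tested genes that average at least 20 CPM, 663 rose and 563 fell. Of the 20 cytosolic members 13 had all combination libraries above all DMSO libraries and 1 all below, and of the 16 mitochondrial members 1 and 4 did, where 13.8% and 13.8% of all tested genes did. The median log2 change was 0.15 over the cytosolic members, -0.02 over the mitochondrial members and 0.00 over the 7698 tested genes that average at least 20 CPM. The changes were small: the largest, that of SARS, was 1.29-fold.

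**Figure D2:**
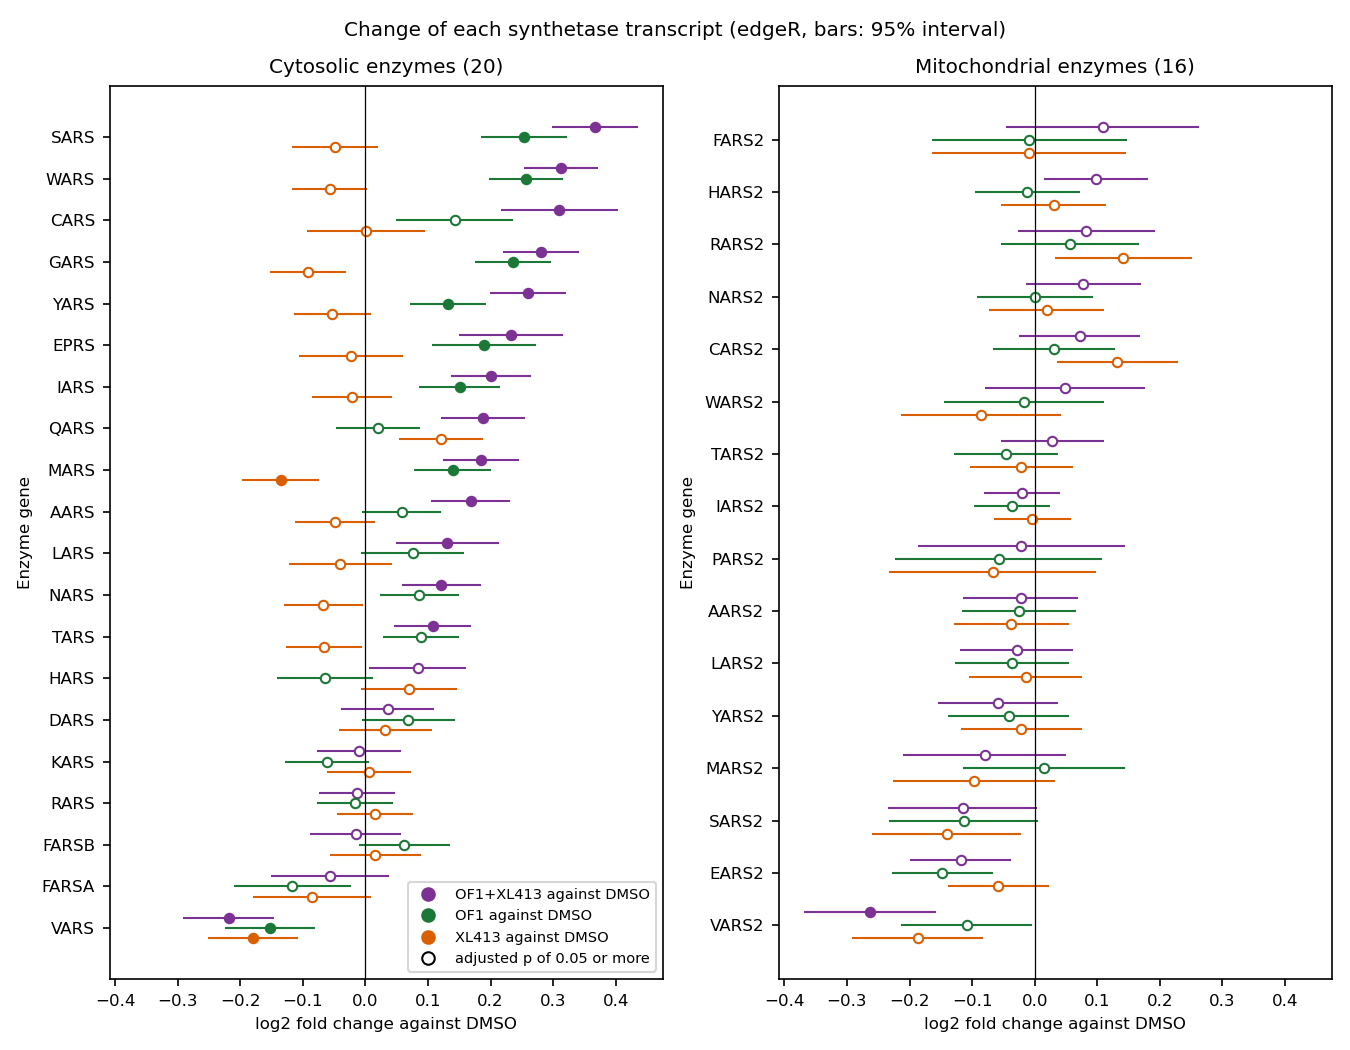
Log2 fold change of each synthetase transcript against DMSO (horizontal axis) for OF1+XL413, OF1 and XL413, with 95% intervals from edgeR and filled points where the adjusted p was under 0.05. In the left panel 13 of 20 cytosolic members are filled to the right of 0 for OF1+XL413, and in the right panel 1 of 16 mitochondrial members, VARS2, is filled, to the left of 0.

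SARS, the cytosolic seryl-tRNA synthetase (chromosome 1, 109213893 to 109238182), had 222, 231 and 239 CPM in the OF1+XL413 libraries, 214, 216 and 211 CPM in the OF1 libraries, 175, 173 and 171 CPM in the XL413 libraries and 180.2, 178 and 178 CPM in the DMSO libraries. Every OF1+XL413 and OF1 library stood above every DMSO library, and every XL413 library below. The log2 change of OF1+XL413 against DMSO was 0.37 ± 0.03 (SE, adjusted p = 1.34e-05). WARS, the tryptophanyl enzyme, known as an interferon-induced gene (chromosome 14, 100333790 to 100376327), had 268, 275 and 273 CPM in the OF1+XL413 libraries, 264, 263 and 258 CPM in the OF1 libraries, 209, 211 and 211 CPM in the XL413 libraries and 222, 219.7 and 215 CPM in the DMSO libraries. Its groups were ordered in the same way, with no overlap with DMSO, and it rose by 0.31 ± 0.03 (SE, adjusted p = 1.49e-05) on the log2 scale in the combination.

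GARS, the glycyl enzyme of both compartments (chromosome 7, 30594735 to 30634033), had 372, 364 and 358 CPM in the OF1+XL413 libraries, 354, 358 and 349.6 CPM in the OF1 libraries, 282, 278 and 285 CPM in the XL413 libraries and 303, 303 and 295 CPM in the DMSO libraries. The combination and OF1 libraries were again the highest 6 of the 12, and the log2 change in the combination was 0.28 ± 0.03 (SE, adjusted p = 4.59e-05). YARS, the tyrosyl enzyme (chromosome 1, 32775239 to 32817358), had 375, 396 and 385 CPM in the OF1+XL413 libraries, 355, 355 and 348 CPM in the OF1 libraries, 307, 312 and 311 CPM in the XL413 libraries and 321, 323 and 321 CPM in the DMSO libraries. All 3 combination libraries exceeded all others, and YARS rose by 0.26 ± 0.03 (SE, adjusted p = 8.05e-05) against DMSO. CARS, the cysteinyl enzyme (chromosome 11, 3000929 to 3057423), had 126, 130.5 and 137 CPM in the OF1+XL413 libraries, 116, 116 and 119 CPM in the OF1 libraries, 105, 109 and 104 CPM in the XL413 libraries and 113, 104 and 101 CPM in the DMSO libraries. Its DMSO and XL413 libraries overlapped, its combination libraries stood above all others, and the log2 change in the combination was 0.31 ± 0.04 (SE, adjusted p = 0.000616).

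The mitochondrial counterparts of these 5 enzymes that have a separate gene did not pass the test in the same comparison. SARS2 had 33.3, 37.4 and 37.6 CPM in the OF1+XL413 libraries, 33.7, 36.6 and 38.2 CPM in the OF1 libraries, 36.5, 35.3 and 34.8 CPM in the XL413 libraries and 39.4, 40.2 and 37.8 CPM in the DMSO libraries. Its combination libraries were all below the DMSO libraries, with a log2 change of -0.12 (95% interval -0.23 to 0.00, adjusted p = 0.209 by edgeR). WARS2 had 22.8, 21.4 and 21.8 CPM in the OF1+XL413 libraries, 21.4, 21.5 and 20.1 CPM in the OF1 libraries, 21.8, 19.4 and 18.8 CPM in the XL413 libraries and 20.9, 22.4 and 20.5 CPM in the DMSO libraries, and the groups overlapped. YARS2 had 59.0, 62.5 and 66.4 CPM in the OF1+XL413 libraries, 62.9, 63.9 and 63.3 CPM in the OF1 libraries, 65.0, 65.1 and 62.7 CPM in the XL413 libraries and 68.2, 62.5 and 65.0 CPM in the DMSO libraries, and CARS2 had 72.6, 76.8 and 79.2 CPM in the OF1+XL413 libraries, 71.2, 73.9 and 77.1 CPM in the OF1 libraries, 78.2, 84.0 and 76.2 CPM in the XL413 libraries and 71.4, 73.1 and 72.9 CPM in the DMSO libraries. The combination and DMSO libraries of these 2 genes overlapped as well, with log2 changes of -0.06 and 0.07.

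**Figure D3:**
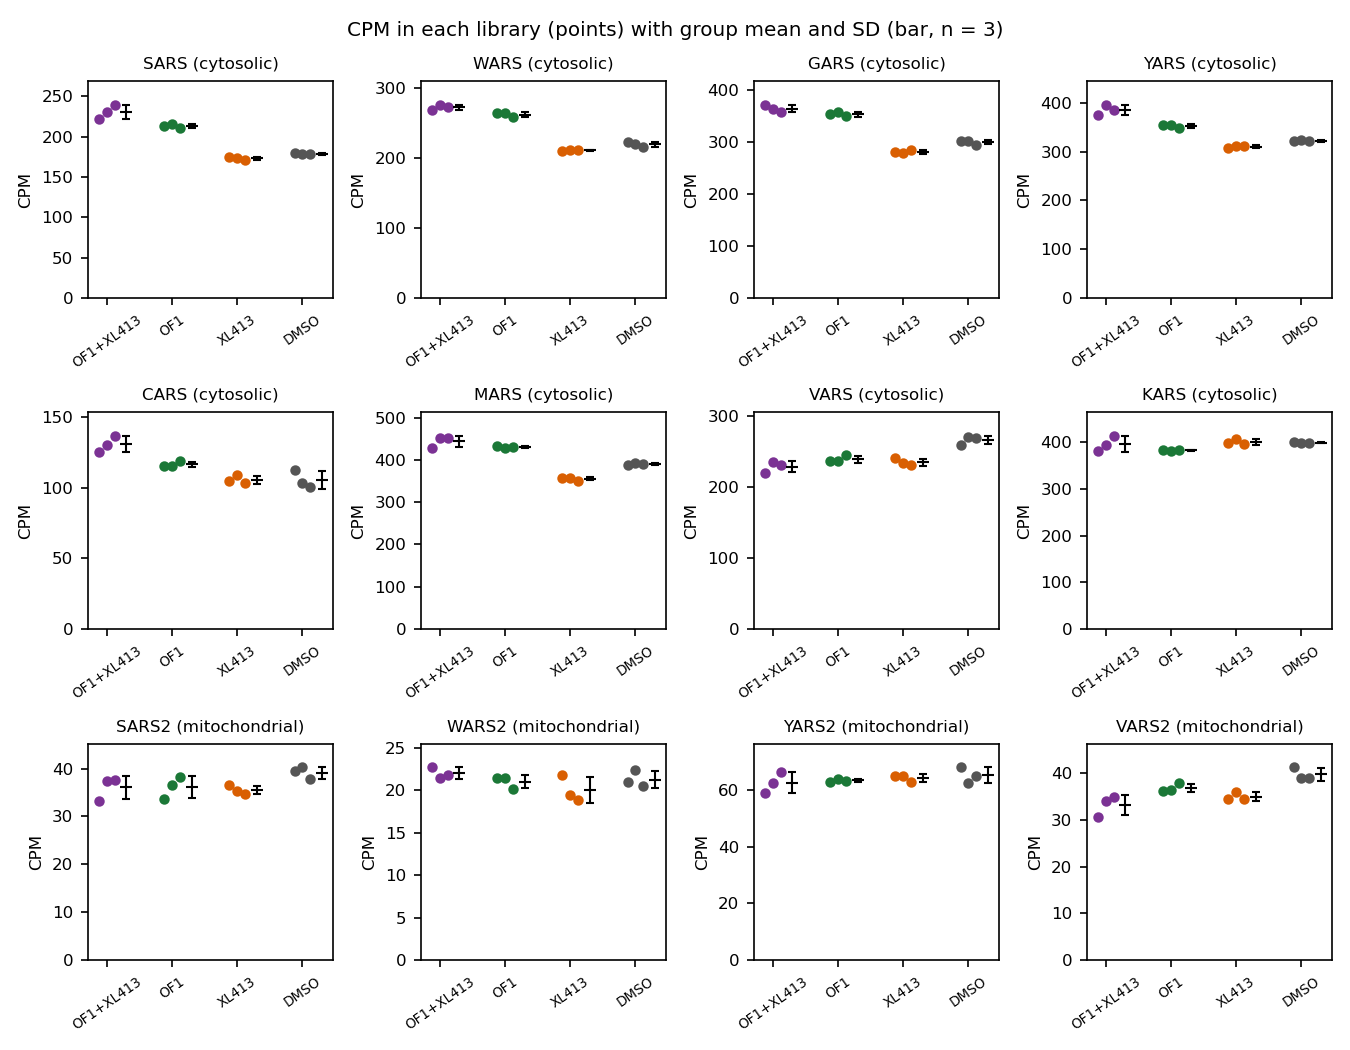
CPM of 12 synthetase transcripts in each library (points), with the group mean and SD beside them (n = 3), for OF1+XL413, OF1, XL413 and DMSO, with each vertical axis starting at 0. The OF1+XL413 and OF1 points of SARS, WARS, GARS, YARS and MARS stand above the DMSO points, those of VARS stand below, and those of WARS2 and YARS2 overlap the DMSO points.

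Of the 8 enzymes of the multisynthetase complex, 5 rose in OF1+XL413 against DMSO (EPRS, IARS, LARS, MARS and QARS) and 3 did not pass (DARS, KARS and RARS). Of the 12 cytosolic members outside it, 8 rose (AARS, CARS, GARS, NARS, SARS, TARS, WARS and YARS), VARS fell and 3 did not pass. Whether the 2 sets differ was not tested. EPRS, which carries the glutamyl and prolyl activities in a single protein (chromosome 1, 219968600 to 220046505), had 538, 506 and 481 CPM in the OF1+XL413 libraries, 505, 501 and 475 CPM in the OF1 libraries, 431, 420.0 and 426 CPM in the XL413 libraries and 425, 433 and 439.7 CPM in the DMSO libraries. It rose by 0.23 ± 0.04 (SE, adjusted p = 0.00191) on the log2 scale, with no overlap of the combination with DMSO. IARS, the isoleucyl enzyme (chromosome 9, 92210207 to 92293697), had 416, 410.1 and 395 CPM in the OF1+XL413 libraries, 403, 389 and 387 CPM in the OF1 libraries, 355, 343 and 349.8 CPM in the XL413 libraries and 351, 357 and 355 CPM in the DMSO libraries, and its log2 change was 0.20 ± 0.03 (SE, adjusted p = 0.000878). The 3 combination libraries of IARS exceeded all DMSO and XL413 libraries.

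MARS, the methionyl enzyme that charges both initiator and elongator tRNAs (chromosome 12, 57488068 to 57516652), had 429, 451 and 452 CPM in the OF1+XL413 libraries, 433, 427 and 430.5 CPM in the OF1 libraries, 358, 358 and 351 CPM in the XL413 libraries and 388, 392 and 391 CPM in the DMSO libraries. MARS rose in the combination by 0.18 ± 0.03 (SE, adjusted p = 0.00113) on the log2 scale. Its mitochondrial counterpart MARS2 had 24.1, 26.2 and 21.7 CPM in the OF1+XL413 libraries, 26.3, 25.7 and 25.01 CPM in the OF1 libraries, 24.6, 22.6 and 24.0 CPM in the XL413 libraries and 24.97, 25.2 and 26.0 CPM in the DMSO libraries, and the combination spanned the whole DMSO range. QARS, the glutaminyl enzyme (chromosome 3, 49095932 to 49104757), differed in pattern: it had 254, 266 and 269.6 CPM in the OF1+XL413 libraries, 232, 231 and 240.3 CPM in the OF1 libraries, 246, 255 and 253 CPM in the XL413 libraries and 232, 229.5 and 232 CPM in the DMSO libraries. OF1 libraries of QARS overlapped those of DMSO, and combination and XL413 libraries stood above both. Its log2 change in the combination was 0.19 ± 0.03 (SE, adjusted p = 0.0019).

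AARS, the alanyl enzyme (chromosome 16, 70252298 to 70289506), had 384, 408 and 406 CPM in the OF1+XL413 libraries, 373, 369 and 367 CPM in the OF1 libraries, 343, 342 and 346 CPM in the XL413 libraries and 357, 357 and 351 CPM in the DMSO libraries. The log2 change of AARS in the combination was 0.17 ± 0.03 (SE, adjusted p = 0.00261). NARS, the asparaginyl enzyme (chromosome 18, 57600656 to 57621836), had 441, 441 and 432 CPM in the OF1+XL413 libraries, 426, 438 and 418 CPM in the OF1 libraries, 380.3, 377 and 396 CPM in the XL413 libraries and 402, 402 and 404 CPM in the DMSO libraries, and rose by 0.12 ± 0.03 (SE, adjusted p = 0.0179). TARS, the threonyl enzyme (chromosome 5, 33440696 to 33468091), had 392, 384 and 378 CPM in the OF1+XL413 libraries, 385, 382 and 372 CPM in the OF1 libraries, 341, 337 and 346 CPM in the XL413 libraries and 357, 362 and 353 CPM in the DMSO libraries, and rose by 0.11 ± 0.03 (SE, adjusted p = 0.0269). In all 3 of these genes the groups stood in the order combination, OF1, DMSO, XL413 by their means. LARS, the leucyl enzyme and a known leucine sensor, rose by 0.13 ± 0.04 (SE, adjusted p = 0.0427).

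The valyl enzymes moved the other way. VARS (chromosome 6, 31777518 to 31795752) had 219.7, 235 and 231 CPM in the OF1+XL413 libraries, 236, 236 and 245 CPM in the OF1 libraries, 240.1, 234 and 230.5 CPM in the XL413 libraries and 259, 270.1 and 268 CPM in the DMSO libraries. All 9 inhibitor libraries lay below the 3 DMSO libraries. VARS fell by 0.22 ± 0.03 on the log2 scale in the combination (SE, adjusted p = 0.0011). VARS2, the mitochondrial valyl enzyme (chromosome 6, 30914238 to 30926459), had 30.7, 34.0 and 34.8 CPM in the OF1+XL413 libraries, 36.3, 36.5 and 37.9 CPM in the OF1 libraries, 34.5, 36.1 and 34.4 CPM in the XL413 libraries and 41.4, 39.0 and 39.1 CPM in the DMSO libraries. Its inhibitor libraries were likewise all below DMSO, and it fell by 0.26 ± 0.05 in the combination (SE, adjusted p = 0.00413).

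DARS, FARSA, FARSB, KARS and RARS were called in none of the 7 comparisons by edgeR on all 12 libraries. In the combination against DMSO their log2 changes ran from -0.06 for FARSA to 0.04 for DARS. The 95% interval was -0.08 to 0.06 for KARS and -0.07 to 0.05 for RARS, and both intervals lie below that of SARS (0.30 to 0.43). HARS, the histidyl enzyme, had a log2 change of 0.08 (adjusted p = 0.159 by edgeR). HARS and HARS2 are transcribed in opposite directions on chromosome 5 from starts 85 bases apart, and the log2 change of HARS2 was 0.10 (adjusted p = 0.127 by edgeR). Outside VARS2, the 15 other mitochondrial members had log2 changes from -0.12 for EARS2 to 0.11 for FARS2.

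With the muscle score as a covariate, 9 of the 15 calls remained, those of CARS, EPRS, GARS, IARS, SARS, WARS, YARS, VARS and VARS2. AARS, LARS, MARS, NARS, QARS and TARS lost theirs, with log2 changes still between 0.10 and 0.17, SEs of 0.04 to 0.05 in place of 0.03 to 0.04, and adjusted p between 0.0609 for MARS and 0.273 for TARS. Replicate 1 of the combination had a muscle sum of 91.3 CPM, inside the DMSO range, and with this replicate alone for the combination 14 members were called. Of these, 13 were among the 15 and the other was FARSA, at a log2 change of -0.18, while AARS and NARS lost their calls. In that fit the combination has no spread of its own and its lone library is assumed to vary like the other groups, so that it gives values and says little about the stability of a call. LARS and TARS kept their calls in 1 of 6 fits that left out a single library, the one without OF1+XL413 replicate 3, and NARS in the 2 fits without OF1+XL413 replicate 1 or 3. The fibroblast sum of OF1+XL413 replicate 1 was 144 CPM, below the DMSO range of 199 to 253 CPM. The part of the fibroblast transcripts in these results, also those with replicate 1 alone, was not tested. HARS, HARS2, DARS, YARS, SARS2, TARS2 and WARS2 had expected counts that were not whole, so that some of their reads were shared with other rows.

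OF1 alone also raised cytosolic synthetases. Against the same DMSO libraries 7 of 20 rose (EPRS, GARS, IARS, MARS, SARS, WARS and YARS) and VARS fell, beside 0.58% of all tested genes risen and 0.567% fallen. Among the 7698 genes of at least 20 CPM, 70 rose and 73 fell. The median log2 change was 0.08 over the cytosolic members and -0.03 over the mitochondrial ones, against -0.01 over the genes of at least 20 CPM. No mitochondrial member was called by edgeR or DESeq2 (2 and 1 of 16 had an unadjusted p under 0.05). The largest changes were those of WARS at 0.26 ± 0.03 (SE, adjusted p = 0.000327), SARS at 0.25 ± 0.03 (SE, adjusted p = 0.00111) and GARS at 0.24 ± 0.03 (SE, adjusted p = 0.000833). EPRS stood at 0.19 ± 0.04 (SE, adjusted p = 0.0276) on the log2 scale. MARS, IARS and YARS rose by 0.13 to 0.15, and VARS fell by 0.15 (adjusted p = 0.043 by edgeR).

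GARS, SARS and WARS kept their OF1 calls in all 14 other fits, including each fit without a single library. The calls of IARS, MARS, YARS and VARS ended in each of the 6 fits without a single OF1 or DMSO library, and that of EPRS in 5 of them, all but the fit without OF1 replicate 3. With the muscle score as a covariate 3 calls remained, at log2 changes of 0.24, 0.26 and 0.27 for GARS, SARS and WARS. The other 5 no longer passed the threshold but hardly moved in size: EPRS, IARS, MARS and YARS had log2 changes of 0.15 to 0.18 and VARS one of -0.15, with adjusted p between 0.0569 and 0.104.

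With XL413 alone 2 members were called, both fallen. Against DMSO, MARS fell by 0.14 ± 0.03 on the log2 scale (SE, adjusted p = 0.0248 by edgeR) and VARS by 0.18 ± 0.03 (adjusted p = 0.0136). The other 34 members did not pass, beside 1.26% of all tested genes risen and 1.54% fallen. Among the 7698 genes of at least 20 CPM, 146 rose and 204 fell. Among the 20 cytosolic members 13 had negative log2 changes, with a median of -0.04, against -0.01 over the genes of at least 20 CPM. QARS stood at 0.12 ± 0.03 (SE, adjusted p = 0.0537) and VARS2 at -0.19 ± 0.05 (SE, adjusted p = 0.0562), just outside the threshold. QARS was called as risen in 5 alternatives, with an adjusted p of 0.0481 by RLE factors, 0.0364 by upper-quartile factors, 0.0126 by DESeq2, 0.044 with a filter of at least 1 CPM in 3 libraries and 0.013 with the compared libraries alone. Among the 6 fits without a single library, the MARS call remained in the fit without XL413 replicate 1, and the VARS call in the fits without DMSO replicate 1 or XL413 replicate 1. Of the mitochondrial members 4 of 16 had an unadjusted p under 0.05, and DESeq2 called 1 of them, VARS2. With the compared libraries alone edgeR called CARS2 as risen, at 0.13 (adjusted p = 0.0472). In that fit SARS2 fell by 0.14 (adjusted p = 0.0471 by edgeR) and VARS2 by 0.19 (adjusted p = 0.0144).

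The effect of adding OF1 to XL413 was seen in 12 cytosolic members. In OF1+XL413 against XL413 libraries AARS, CARS, EPRS, GARS, IARS, LARS, MARS, NARS, SARS, TARS, WARS and YARS rose, beside 1.06% of all tested genes risen and 2.35% fallen. Among the 7698 genes of at least 20 CPM, 127 rose and 186 fell. SARS rose by 0.42 ± 0.03 (SE, adjusted p = 3.99e-06), GARS by 0.37 ± 0.03 (SE, adjusted p = 3.99e-06), WARS by 0.37 ± 0.03 (SE, adjusted p = 3.99e-06) and MARS by 0.32 ± 0.03 (SE, adjusted p = 1.48e-05) on the log2 scale. The median was 0.18 over the cytosolic members, 0.02 over the mitochondrial ones and 0.02 over the genes of at least 20 CPM. No mitochondrial member was called by edgeR or DESeq2 (1 and 0 of 16 had an unadjusted p under 0.05). In this comparison 9 of 10 muscle markers fell. With the muscle score as a covariate 5 calls remained (GARS, MARS, SARS, WARS and YARS), while the 7 that lost their call had log2 changes of 0.16 to 0.30 and adjusted p between 0.0862 and 0.522. With replicate 1 alone for the combination, where the other groups supply all of the spread, 12 members were again past the threshold. LARS lost its call in all but 1 of the 6 fits without a single library, the one without OF1+XL413 replicate 3.

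Adding XL413 to OF1 changed fewer members, and none of these calls held in every fit. In OF1+XL413 against OF1 libraries AARS, CARS, HARS, QARS and YARS rose and the other 31 members did not pass, beside 2.79% of all tested genes risen and 2.71% fallen. Among the 7698 genes of at least 20 CPM, 359 rose and 210 fell. QARS rose by 0.17 ± 0.03 (SE, adjusted p = 0.00905), CARS by 0.17 ± 0.04 (SE, adjusted p = 0.0395), HARS by 0.15 ± 0.04 (SE, adjusted p = 0.0313), YARS by 0.13 ± 0.03 (SE, adjusted p = 0.0211) and AARS by 0.11 ± 0.03 (SE, adjusted p = 0.0425). All 10 muscle markers fell in this comparison. With the muscle score as a covariate, or with the 6 compared libraries alone, the count was 0. With the muscle score the log2 changes of these members were 0.04 to 0.14, with SEs of 0.05 to 0.07 in place of 0.03 to 0.04. The share of all tested genes called in that fit is not given here, so the lost calls cannot be read as particular to the members. The log2 changes with replicate 1 alone were 0.12 for QARS, 0.11 for CARS, 0.09 for HARS, 0.09 for YARS and 0.05 for AARS. The calls of AARS, CARS and HARS also ended in every fit without a single library except that without OF1+XL413 replicate 1, and the call of YARS without OF1 replicate 2, OF1 replicate 3 or OF1+XL413 replicate 2. No mitochondrial member was called by edgeR or DESeq2 (2 of 16 had an unadjusted p under 0.05 by each).

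Between the single inhibitors, OF1 against XL413, 10 cytosolic members rose (AARS, EPRS, GARS, IARS, MARS, NARS, SARS, TARS, WARS and YARS) and HARS fell, beside 3.35% of all tested genes risen and 3.1% fallen. Among the 7698 genes of at least 20 CPM, 378 rose and 355 fell. GARS differed by 0.33 ± 0.03 (SE, adjusted p = 1.36e-05), WARS by 0.31 ± 0.03 (SE, adjusted p = 1.66e-05) and SARS by 0.30 ± 0.03 (SE, adjusted p = 6.81e-05) on the log2 scale. HARS had a change of -0.13 ± 0.04 (SE, adjusted p = 0.0408). HARS had 244, 251 and 268 CPM in the combination, and its OF1 libraries (229, 227 and 233 CPM) were the lowest of the 12. The calls of AARS and HARS ended in each of the 6 fits without a single library, and that of NARS without XL413 replicate 2. No mitochondrial member was called by edgeR or DESeq2 (2 and 1 of 16 had an unadjusted p under 0.05). Muscle sums of the OF1 and XL413 libraries overlapped.

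Non-additivity, the combination's log2 change minus the log2 changes of OF1 and of XL413, was not called for any member. edgeR called 0 of 36 members and 0% of all tested genes, while 10 members and 1566 of 15353 genes had an unadjusted p under 0.05. The smallest adjusted p among members was 0.118, for MARS at 0.18 ± 0.04 and YARS at 0.18 ± 0.04 on the log2 scale (SE). DESeq2 called these 2 members among 109 genes. Without OF1+XL413 replicate 1, edgeR called 5 members (AARS, FARSA, MARS, SARS and YARS) among 362 genes. That fit rests on the 2 combination libraries of lowest muscle sum, 21.2 and 31.8 CPM. The muscle markers had a median departure of -2.98, with 10 of 10 at an unadjusted p under 0.05, and the fibroblast markers one of -1.53, with 4 of 5. edgeR called 0 members with the muscle score as a covariate. The part of these transcripts in the departure of the members was not tested further. The departure was positive in 31 of 36 members, with a median of 0.08, and in 4749 of the 7698 genes of at least 20 CPM, with a median of 0.02.

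Cytosolic and mitochondrial enzymes for the same amino acid were also set beside each other, for the 13 amino acids whose genes share a symbol apart from the final 2. Phenylalanine (FARSA and FARSB, and FARS2) and glutamate and proline (EPRS, and EARS2 and PARS2) were left out, since their cytosolic enzyme has subunits or serves both amino acids. In the combination the ratio of cytosolic to mitochondrial CPM was higher than in DMSO without overlap in 8 of 13 pairs. In 1 pair, that of arginine (RARS over RARS2), it was lower without overlap. Single genes were higher without overlap in 13.8% of those tested and lower in 13.8%. A ratio of 2 genes can spread differently, and no such share was computed for other pairs of genes. The single-gene shares here and below are thus no baseline for the pairs. The log2 ratio differed most for serine, by 0.48, followed by tyrosine at 0.32, methionine at 0.27 and tryptophan at 0.26. In OF1 against DMSO the ratio was higher without overlap in 9 of 13 pairs, beside 10.2% of single genes higher and 11.8% lower. In XL413 against DMSO it was higher without overlap for serine and lower for cysteine, asparagine and arginine, where 13% of single genes were higher and 14.8% lower. Each such pair reached an exact permutation p of 0.1 (two-sided), the smallest that 3 against 3 libraries allow, and none can pass a threshold of 0.05 in this design. The valine pair changed together: the log2 ratio of VARS to VARS2 differed from DMSO by 0.05 in the combination, -0.04 in OF1 and 0.01 in XL413, with overlap in each.

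**Figure D4:**
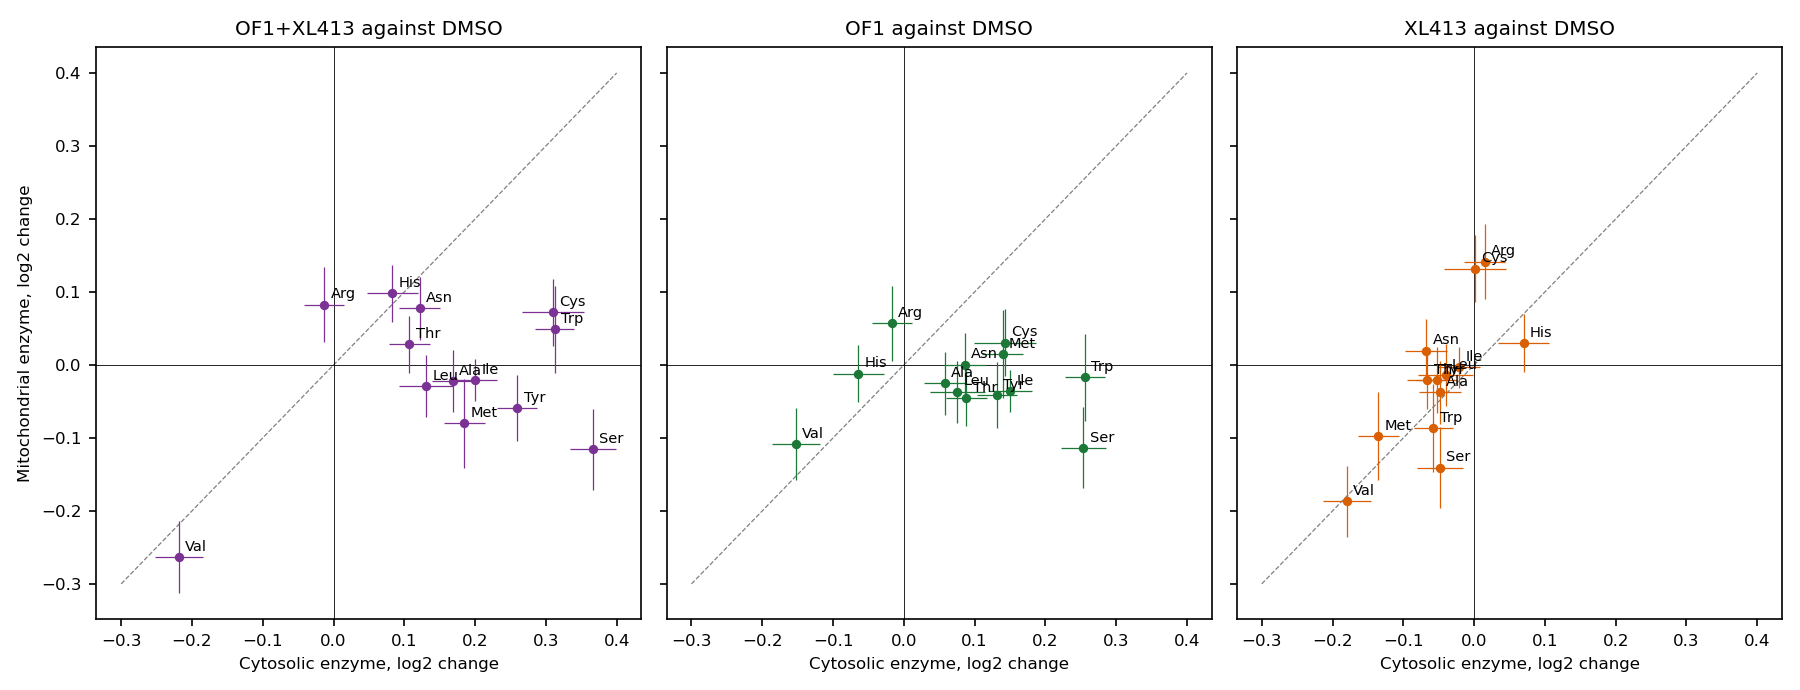
Log2 change against DMSO of the mitochondrial enzyme (vertical axis) and of the cytosolic enzyme (horizontal axis) for the same amino acid, 13 pairs per panel, with SE bars and a dashed line of equal change. In the OF1+XL413 panel the serine pair lies at 0.37 on the horizontal axis and -0.12 on the vertical one, and the valine pair lies near the line, below 0 on both.

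Summed over each compartment, cytosolic transcripts were highest in the combination. The cytosolic sum was 2262 ± 41.9 CPM per kb in OF1+XL413, 2167 ± 9.92 in OF1, 2033 ± 2.55 in XL413 and 2090.0 ± 8.43 CPM per kb in DMSO (SD, n = 3 each). The mitochondrial sum was 337 ± 7.55, 331 ± 0.362, 338 ± 2.36 and 338 ± 1.54 CPM per kb in the same groups. The ratio of the sums was 6.72, 6.77 and 6.65 in OF1+XL413 libraries, 6.54, 6.58 and 6.54 in OF1 libraries, 6, 5.99 and 6.06 in XL413 libraries and 6.18, 6.19 and 6.19 in DMSO libraries. The 4 groups did not overlap in this ratio. No test was made on the sums, which are led by the most abundant members. The cytosolic sum includes GARS and KARS, which encode the enzymes of both compartments. GARS stood at 138.4 CPM per kb in the combination and 114 in DMSO, and KARS at 197.5 and 198.9.

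**Figure D5:**
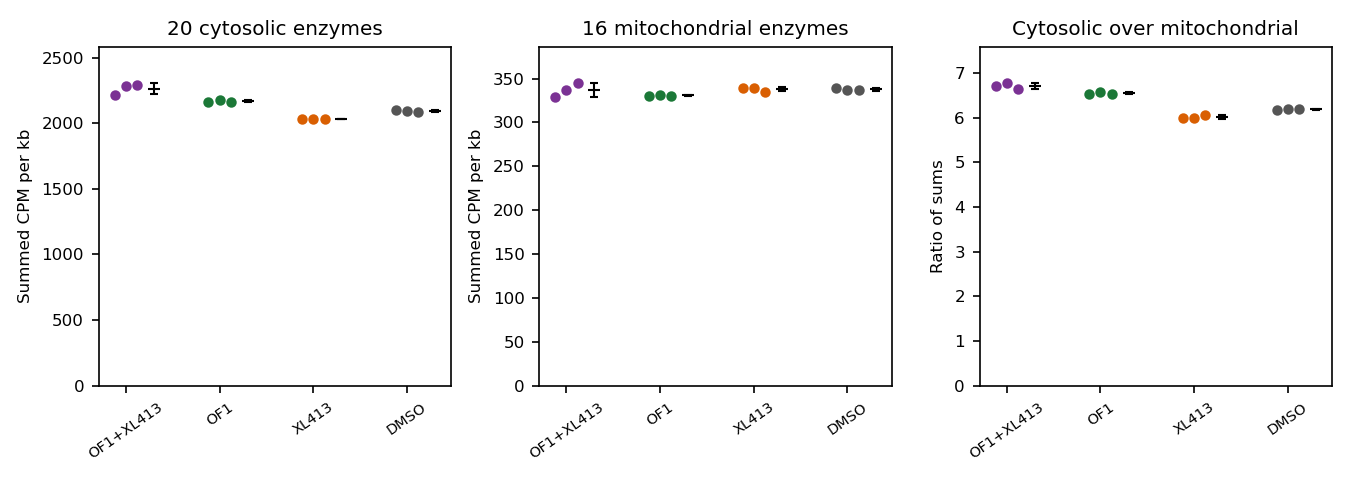
Summed CPM per kb of the 20 cytosolic and the 16 mitochondrial members and the ratio of the sums in each library (points), with group mean and SD beside them (n = 3). The ratio lies at 6.65 to 6.77 in OF1+XL413, 6.54 to 6.58 in OF1, 5.99 to 6.06 in XL413 and 6.18 to 6.19 in DMSO.

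The companions of the synthetases were not called. The list held 14 symbols, of which 13 were found and tested. The symbol not found, PET112, is an older name of GATB, which was found. Among the 13 were the complex scaffolds AIMP1, AIMP2 and EEF1E1 and the tRNA-end enzyme TRNT1. The mitochondrial glutaminyl-tRNA amidotransferase subunits QRSL1, GATB and GATC were also among them. edgeR called 0 of 13 in every comparison, with at most 2 at an unadjusted p under 0.05, and DESeq2 called 1, risen, in OF1 against DMSO. Of all tested genes 5.65% rose and 5.07% fell in OF1+XL413 against DMSO, and smaller shares did in the other comparisons. A count of 0 among 13 genes is near these shares and does not set the companions apart. The log2 changes of the 3 scaffolds in the combination against DMSO were 0.05, 0.02 and 0.06.

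Other genes of the amino acid response were called in the same comparisons. Of 12 listed, 11 rose in OF1+XL413 against DMSO and DDIT3 did not pass, with a median log2 change of 0.38, where 5.65% of all tested genes rose. In OF1 against DMSO 7 rose, with a median of 0.21, where 0.58% of all genes rose. In XL413 against DMSO 3 fell, ASNS, PSAT1 and SHMT2, with a median of -0.13 over the list, where 1.54% of all genes fell. ASNS, asparagine synthetase, had log2 changes of 0.68 ± 0.03 (SE, adjusted p = 8.12e-09) in the combination and 0.66 ± 0.03 (SE, adjusted p = 1.19e-08) in OF1. PSAT1 and PHGDH, enzymes of serine synthesis, rose in the combination by 0.46 ± 0.03 (SE, adjusted p = 2.68e-07) and 0.43 ± 0.04 (SE, adjusted p = 1.23e-05). MTHFD2, a mitochondrial folate enzyme, rose by 0.34 ± 0.03 (SE, adjusted p = 7.34e-06). ATF4 itself rose in the combination by 0.17 ± 0.04 (SE, adjusted p = 0.0139) and stood at 0.13 ± 0.04 (SE, adjusted p = 0.147) in OF1. In OF1+XL413 against OF1, CHAC1, MTHFD2, PHGDH and SESN2 rose among the 12, where 2.79% of all genes rose, with CHAC1, a glutathione-degrading enzyme, at 0.60 ± 0.11 (SE, adjusted p = 0.0101). The muscle markers had a median log2 change of -1.92 in the combination against DMSO and of -2.65 against OF1, and the fibroblast markers -1.35 and -1.46. With the muscle score as a covariate, tried after seeing the data, 6 of the 12 response genes rose in the combination against DMSO (ASNS, CHAC1, MTHFD2, PHGDH, PSAT1 and SESN2), with a median of 0.32, 5 rose in OF1 against DMSO and 0 passed in OF1+XL413 against OF1.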

How the data were processed

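The values the authors deposited for the 12 libraries are expected counts by gene symbol, a unit in which a read that matches several genes is split between them. Per the submitters' processing notes, the build was hg38 and the tools were RSEM 1.2.15 and Bowtie2 2.1.0. The sources used here give no annotation, read length or strand setting. Whole numbers made up all but 10.6% of the deposited counts, and all were rounded before testing.

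edgeR 4.0.16 in R 4.3.3 was fitted to all 12 libraries with 1 mean per group, TMM factors and filterByExpr, which left 15353 of 26475 rows and 8 residual degrees of freedom. The quasi-likelihood F test gave p-values, adjusted over all tested rows by the Benjamini-Hochberg method, with 0.05 as the threshold. Standard errors were taken as the size of the log2 change over the root of F. DESeq2 1.42.0 and other factors, filters, libraries and covariates were alternatives. Positions and promoters are from RefSeq on GRCh38.p14, and lengths from GENCODE 29. Of 30 members with a promoter window, the last 30 bases of the window lay in a transcript of the gene for 28.

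The members and lists were chosen with earlier results of these data known. Values in every library are given for the 14 members of smallest adjusted p among those called in any comparison, and for the other compartment's enzyme of the first 6. Other members are given by ranges and counts, and listed companions by up to 4 called genes per comparison. ATF4, EARS2, FARS2, HARS2, the 3 complex scaffolds and members named for counts were added beside this rule.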

Additional observations from a re-analysis of the deposited data

How the results depend on the processing

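RLE and upper-quartile factors, and DESeq2, kept the direction and the threshold side of all 53 called member results. No alternative reversed a member, 25 of the 53 calls held in every alternative, and 35 held in every fit without a single library. The number of called members in XL413 against DMSO was 2, and became 4 with DESeq2, 1 with the muscle score as a covariate and 7 with the compared libraries alone. In OF1 against DMSO it was 8, and became 5 with the replicate number as a block and 3 with the muscle score. In OF1+XL413 against DMSO it was 15, and became 9 with the muscle score. In OF1+XL413 against XL413 it was 12, and became 5 with the muscle score. In OF1+XL413 against OF1 it was 5, and became 3 with the replicate block and 0 with the muscle score, with replicate 1 alone for the combination or with the compared libraries alone. The number of amino acid response genes called was 11 in OF1+XL413 against DMSO, and became 6 with the muscle score and 7 with replicate 1 alone for the combination, and was 4 in OF1+XL413 against OF1, and became 0 with either (both tried after seeing the data). For the departure from additivity the number of called members was 0, and became 2 with DESeq2. Fits without a single library gave 0 to 2 in XL413 against DMSO, 3 to 4 in OF1 against DMSO, 12 to 16 in OF1+XL413 against DMSO, 11 to 12 in OF1+XL413 against XL413, 1 to 7 in OF1+XL413 against OF1, 8 to 9 in OF1 against XL413 and 0 to 5 for the departure. These fits hold fewer samples. For the other changes the cause was not tested. Shares of all tested genes called in the alternative fits are not given here, so lost calls cannot be read as particular to the members. Of the 53 calls, 6 were lost under the replicate block. Libraries with the same replicate number were not treated as pairs, since correlations of their deviations ran from -0.350 to 0.565, and not every library correlated best with its own number. The stricter motif took the members with a match down to 6, against 8. Changes of a few percent in members of low count, such as PARS2, are not detectable at this depth.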
